A study of Mus musculus with 35 samples.

Results

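Cxcl12 and its receptors Cxcr4 and Ackr3 were followed through sorted cells of the E14.5 mouse brain. The set holds 3 genes chosen by name, of 53465 genes in the bulk table and of 21548 genes found in wild-type wells, and all 3 were present in both. Cxcl12 encodes a secreted chemokine. Cxcr4 encodes the G protein-coupled receptor through which cells migrate towards it. Ackr3, also called Cxcr7, encodes an atypical receptor that binds the same ligand, recruits arrestin and takes the ligand up. In the embryonic forebrain this system is known for guiding interneurons and Cajal-Retzius cells, and in vessels for arterial patterning and sprouting.

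The study used bulk RNA-seq of 4 populations sorted by FACS (fluorescence-activated cell sorting) from 3 wild-type brains, which gave 12 libraries. Libraries are named here as in the labels, N for neural, Mu for mural, Ec for endothelial and Mi for microglia, with the number of the brain. Neural cells were negative for all surface markers used, mural cells (pericytes and vascular smooth muscle) carried PDGFRb at high level, endothelial cells carried PECAM1 and CD102, and microglia carried CD11b with medium CD45. For neural cells RNA was isolated with a Qiagen mini kit and libraries were made with TruSeq, whereas the other 3 populations went through the miRNeasy Micro kit, SMART-Seq v4 and Nextera XT. Kit and population therefore cannot be told apart wherever neural cells are compared with the others. The second experiment was scRNA-seq (mCEL-Seq2) of single wild-type cells sorted into wells on 3 plates, with a sort gate recorded for each well. The neural gate was again negative for all markers, but the deposited list of wells gives the microglial gate as positive for CD41 with medium CD45, whereas the study describes sorting microglia on CD11b and CD45. Bulk libraries held 17638358 to 98414914 reads on genes. Of 994 wells in the 4 gates, 686 held over 1500 transcripts and were kept. On plates 1, 2 and 3 these were 56, 53 and 14 neural wells, 120, 92 and 13 endothelial wells, and 64, 58 and 6 microglial wells. The mural gate kept 210 wells, 10 of them on plate 3. Summed marker lists of 5 genes each were highest in their own population in all 12 bulk libraries and in their own gate in the wells.

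The promoters are shown first, because the measurements below turn on where each gene was transcribed. Each sequence is the 250 bases before the start given by RefSeq on GRCm38.p6, written 5' to 3' on the strand of the gene. Capitals mark TATAAA (the core of a TATA box) and GGGCGG (the core of a GC box) on either strand, so TTTATA and CCGCCC are also in capitals. Cxcl12 lies at chr6:117168285-117168534 on the plus strand, Cxcr4 at chr1:128592300-128592549 on the minus strand, and Ackr3 at chr1:90203730-90203979 on the plus strand.
Cxcl12: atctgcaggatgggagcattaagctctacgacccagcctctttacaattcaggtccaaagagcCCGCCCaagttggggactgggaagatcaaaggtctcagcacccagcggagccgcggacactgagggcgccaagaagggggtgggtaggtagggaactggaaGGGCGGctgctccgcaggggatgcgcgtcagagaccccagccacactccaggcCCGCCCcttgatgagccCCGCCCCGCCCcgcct
Cxcr4: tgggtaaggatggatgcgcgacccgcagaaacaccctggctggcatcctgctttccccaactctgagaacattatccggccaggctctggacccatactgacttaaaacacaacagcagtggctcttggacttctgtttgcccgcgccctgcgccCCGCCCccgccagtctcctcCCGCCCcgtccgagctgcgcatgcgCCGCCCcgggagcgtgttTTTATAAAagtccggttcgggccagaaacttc
Ackr3: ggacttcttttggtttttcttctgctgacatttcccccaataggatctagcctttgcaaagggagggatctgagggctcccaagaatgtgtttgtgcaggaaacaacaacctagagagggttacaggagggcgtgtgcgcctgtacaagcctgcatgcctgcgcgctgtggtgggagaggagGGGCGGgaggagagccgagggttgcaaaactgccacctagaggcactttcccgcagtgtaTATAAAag
Both receptor windows held TATAAA on the strand of the gene, and the Cxcl12 window held none. The match began 30 bases before the start in Cxcr4, where it overlapped TTTATA in a single run, and 8 bases before the start in Ackr3. GGGCGG or its reverse complement matched 5 times in Cxcl12, 3 times in Cxcr4 and 1 time in Ackr3. The matches nearest the start of Cxcl12, at 16 and 11 bases, overlapped by 1 base. Among 32851 promoters of the same length, 12.4% held TATAAA on either strand, 2.63% held it on the strand of the gene within the last 50 bases, and 32.7% held GGGCGG on either strand. The share of G and C was 64.4% in Cxcl12, 61.2% in Cxcr4 and 54% in Ackr3, against a median of 52.4% over all promoters. These matches describe letters in the windows and are not evidence of binding.

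In the bulk libraries the ligand was highest in endothelial cells and nearly absent from microglia. Cxcl12 (ENSMUSG00000061353, chr6:117168535-117181367, plus strand, GENCODE vM21 on GRCm38) reached 3301, 4163 and 2689 normalized counts in the endothelial libraries Ec-340, Ec-343 and Ec-346. In the same order of brains, neural libraries held 467, 461 and 474.5, and mural libraries held 360.5, 388 and 640. Microglia held 14.3, 1.19 and 0, from 12, 1 and 0 reads. All endothelial libraries thus lay above all others, all microglial libraries lay below all others, and the neural values fell inside the mural range.

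The endothelial mean was 3385 ± 741 normalized counts (SD, n = 3), which was 7.24 times the neural mean of 467.5 ± 6.88 and 7.31 times the mural mean of 463 ± 153.8. Against the mean of the other 3 populations on the log2(normalized count + 1) scale, endothelial Cxcl12 was higher by 5.25 (SE 0.64, limma adjusted p = 9.68e-05) and microglial Cxcl12 was lower by 8.11 (log2 difference -8.11, SE 0.64, limma adjusted p = 2.02e-06). Of 19765 genes tested, 19.7% were called higher in endothelial cells and 22.3% lower in microglia. In the exact two-sided permutation test of 3 libraries against 9, both contrasts gave p = 0.00909, the smallest value this design allows, and 0.0273 after adjustment over 12 such tests. Neural Cxcl12 differed from mural Cxcl12 by 0.06 (SE 0.78, limma adjusted p = 0.965), a difference within the spread of the libraries. The neural contrast with the other 3 was 1.47 (adjusted p = 0.0637) and the mural one was 1.39 (adjusted p = 0.105) in limma, and both passed without library Mi-340 (adjusted p = 0.000608 and 0.00155). Both values include microglia, at a mean of 5.15 normalized counts, in the mean of the others, and both populations lay below endothelial cells. With pseudocounts of 10 and 0.1 the endothelial contrast was 4.53 and 5.71, and the microglial one -6.01 and -9.50. Endothelial Cxcl12 was above neural Cxcl12 by 2.83 and above mural Cxcl12 by 2.89 (limma adjusted p = 0.00965 and 0.0181). Of all genes, 57.7% and 27.8% were called in these pairs. Both differences missed the threshold in limma with a pseudocount of 0.1 (adjusted p = 0.0917 and 0.135), and the mural one also without Mu-340 (0.0576), Mu-343 (0.053) or Ec-343 (0.0536). Every pair with microglia was called, where 59.8%, 38% and 32.4% of genes were for neural, mural and endothelial cells.

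**Figure D1:**
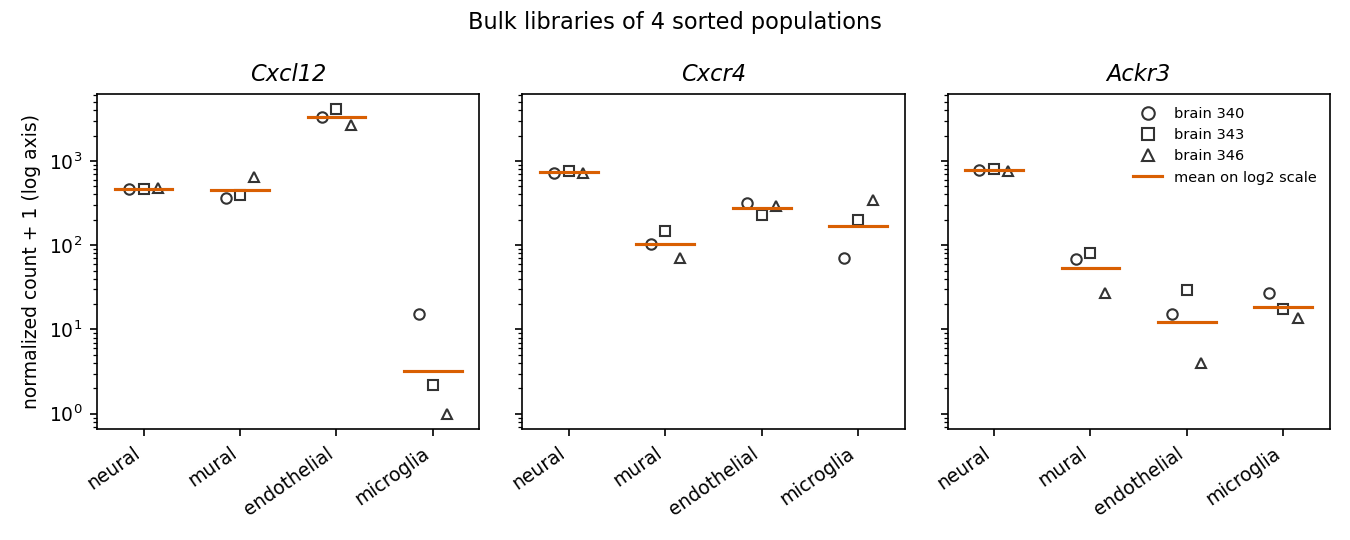
Normalized count + 1 (log axis) of Cxcl12, Cxcr4 and Ackr3 in the 12 bulk libraries by population. Marker shapes give the brain and bars the mean on the log2 scale. Endothelial Cxcl12 (2689 to 4163) and neural Ackr3 (757 to 808) lie above all other libraries.

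Markers of other cell types were present in these libraries. The 5 endothelial markers together held 93 to 108.2 normalized counts in neural libraries and 1839 to 3115 in mural libraries, against 127100 to 140400 in endothelial libraries. In these libraries 1 of the markers, Cldn5, was listed at 0 in Mu-343. The 6 fibroblast markers together held 9181, 8873 and 11800 in Mu-340, Mu-343 and Mu-346, against 225 to 270 in neural libraries. In mural cells 4 of the 6 were called higher and 1 lower (19.3% and 22.7% of all genes). The sum came mostly from the collagens Col3a1 (mean 5837) and Col1a2 (3469), whereas Pdgfra was at 0.313 in mural and 150.6 in neural cells. The 5 erythroid markers, mainly globins, summed to 12170 to 32840 in endothelial and 8462 to 11330 in neural libraries, against 242 to 402 in mural and 1536 to 1921 in microglial ones. The part of fibroblasts and erythroid cells in these Cxcl12 levels was not tested. In bulk libraries fewer cells of a type and less RNA per cell cannot be told apart.

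The signalling receptor was highest in neural cells and present in all 4 populations. Cxcr4 (ENSMUSG00000045382, chr1:128588199-128592293, minus strand) stood at 722.5, 754 and 714 normalized counts in the neural libraries of the 3 brains (N-340, then N-343, then N-346). In the same order of brains, endothelial libraries held 317, 226 and 290, and mural libraries held 102.7, 147.2 and 70.4. Microglia held 68.9 in Mi-340, 196 in Mi-343 and 342 in Mi-346. All neural libraries exceeded all others and all endothelial libraries exceeded all mural ones, whereas the microglial values spanned the range of both.

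The neural mean was 730 ± 20.9 normalized counts (SD, n = 3), against 277.5 ± 46.9 in endothelial cells, 202 ± 136.9 in microglia and 106.8 ± 38.6 in mural cells. Neural Cxcr4 was higher than the mean of the other 3 by 2.12 on the log2 scale (SE 0.43, limma adjusted p = 0.00126) and mural Cxcr4 was lower (log2 difference -1.65, SE 0.43, limma adjusted p = 0.00981), where 32.9% of genes were called higher in neural and 22.7% lower in mural cells. The exact two-sided permutation p was 0.00909 for neural and 0.0455 for mural libraries, or 0.0273 and 0.109 after adjustment over the 12 tests. Neural Cxcr4 lay 2.82 above mural Cxcr4 and 2.12 above microglial Cxcr4 (limma adjusted p = 0.000889 and 0.00467), and 54.6% and 59.8% of genes were called in those pairs. It lay 1.41 above endothelial Cxcr4 (SE 0.52, limma adjusted p = 0.0381) in a pair where 57.7% of genes were called. That pair missed the threshold in limma with the brain as a block (adjusted p = 0.0548), with no minimum on levels (0.0515), after quantile normalization (0.122) and without any 1 of the 6 neural or endothelial libraries (0.0542 to 0.0937).

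No pair among endothelial, microglial and mural Cxcr4 was called in limma. Endothelial and mural cells differed by 1.42 (mural minus endothelial -1.42, adjusted p = 0.0653), endothelial cells and microglia by 0.72 (adjusted p = 0.337), and mural cells and microglia by 0.70 (mural minus microglia -0.70, adjusted p = 0.324). Of all genes, 27.8%, 32.4% and 38% were called in these 3 pairs. The first pair passed in limma without Mi-340 (adjusted p = 0.0145) or Mi-346 (0.0356), after quantile normalization (0.046) and with DESeq2 (0.0334), and the third passed without Mi-340 (0.0259). Microglia differed from the mean of the others by -0.71 (limma adjusted p = 0.198), but by -1.23 (adjusted p = 0.0404) without Mi-346.

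The sum of markers of other leukocytes was highest in Mi-346, the library with the most Cxcr4, but not higher in Mi-343 than in Mi-340. Ccr2, a receptor of circulating monocytes, was at 1113, 1067 and 4333 normalized counts in Mi-340, Mi-343 and Mi-346. Ly6c2, a further monocyte gene, was at 102.2, 49.8 and 452. The whole list of 6 markers of other leukocytes summed to 2318, 2093 and 6419, with 2 of the 6 genes at 0 in all 3 libraries, against 0 to 37.2 in the other populations. The 5 border macrophage markers summed to 9468 to 12740 in microglia, with Cd163 at 0 in 2 of the 3 libraries, and Cx3cr1, a microglial receptor, varied little, from 46150 to 48420. The part of other leukocytes in microglial Cxcr4 was not tested.

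The scavenging receptor was concentrated in neural cells. Ackr3 (ENSMUSG00000044337, chr1:90203980-90216751, plus strand) was at 785, 808 and 757 normalized counts in the 3 neural libraries. In the same order of brains, mural libraries held 68.2, 79.9 and 26.3, microglia 26.1, 16.6 and 12.6, and endothelial libraries 14.2, 28.4 and 3.02 (8, 20 and 2 reads). Neural values did not overlap any other population, and the mural libraries overlapped the endothelial ones.

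The neural mean of 783 ± 25.6 normalized counts (SD, n = 3) was 13.5 times the mural mean of 58.1 ± 28.2 and 42.5 times the microglial mean of 18.4 ± 6.97, and the endothelial mean was 15.2 ± 12.7. On the log2 scale the neural excess over the other 3 was 5.09 (SE 0.61, limma adjusted p = 3.33e-05, exact two-sided permutation p = 0.00909), where 32.9% of genes were called higher. Each neural pair was called, where 54.6%, 57.7% and 59.8% of genes were against mural, endothelial and microglial cells. Endothelial Ackr3 was lower than the mean of the others (log2 difference -2.92, SE 0.61, limma adjusted p = 0.00321; 22.4% of genes called lower). Microglial Ackr3 was also lower (log2 difference -2.10, limma adjusted p = 0.0166), but not past the threshold without Mi-343 (0.0568) or Mi-346 (0.0682). Both values include the neural libraries in the mean of the others, and the exact permutation p was 0.0818 and 0.236. Mural Ackr3 was not called against the mean of the others (log2 difference -0.07, limma adjusted p = 0.936). No pair among mural, microglial and endothelial cells was called in limma, and the widest, mural minus endothelial at 2.14 (adjusted p = 0.0555), passed with the brain as a block (adjusted p = 0.0417), with a pseudocount of 10 (0.0428), with DESeq2 (0.0177), without Mu-346 (0.0366) and without Ec-343 (0.0186). With 1 library left out that difference ran from 1.34 without Ec-346 (limma adjusted p = 0.143) to 2.78 without Ec-343. With DESeq2 mural Ackr3 also exceeded microglial Ackr3 (adjusted p = 0.0323).

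Some neural RNA was present in the other libraries. Tubb3, a neuronal tubulin, was at 30180 to 34480 normalized counts in neural libraries and at 464 to 1584 in the other 9, and Dcx, a protein of migrating neurons, was at 31490 to 35890 and at 247 to 1211. The summed neural list, which also holds Nes of progenitors and endothelium, reached 6983 to 14960 outside neural cells against 106700 to 117400 within, with no marker at 0. The share of low Ackr3 and Cxcr4 values in the 3 other populations that came from neural RNA was not tested.

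Levels of the 3 genes can be set side by side only per length. Exons of all annotated transcripts joined together span 8176 bases for Cxcl12, 1808 for Cxcr4 and 3348 for Ackr3. In neural cells Cxcr4 led at 404 ± 11.5 normalized counts per kb (SD, n = 3), followed by Ackr3 at 234 ± 7.64 and Cxcl12 at 57.2 ± 0.841. The Ackr3 to Cxcr4 ratio per kb was 0.587, 0.579 and 0.572 in the neural libraries and 0.00562 to 0.359 in all others. In endothelial cells the order turned to Cxcl12 at 414 ± 90.6, Cxcr4 at 153.5 ± 25.9 and Ackr3 at 4.54 ± 3.8. Mural cells held 56.6 ± 18.8, 59.1 ± 21.3 and 17.4 ± 8.41 per kb for Cxcl12, Cxcr4 and Ackr3, and microglia held 0.63 ± 0.968, 111.9 ± 75.7 and 5.51 ± 2.08. Scaled to the longest transcript instead, mural Cxcl12 was at 82.2 ± 27.3 and mural Cxcr4 at 59.2 ± 21.4, which turned their order, and the orders in the other populations stayed. Thus neural cells held the most of both receptors per length, endothelial cells the most ligand, and microglia more Cxcr4 than Ackr3 or Cxcl12.

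**Figure D2:**
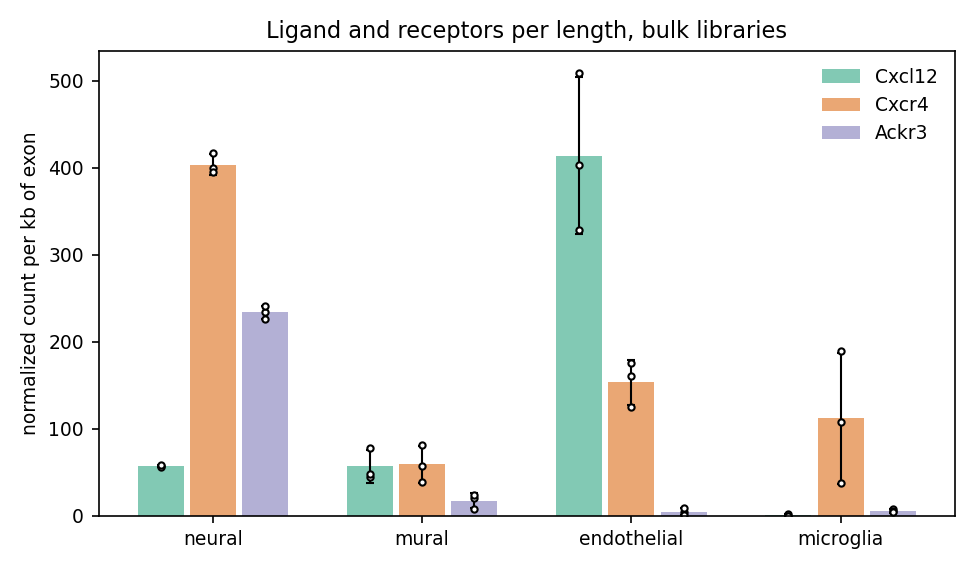
Normalized count per kb of exon for the ligand and both receptors in the 4 bulk populations. Bars are means, error bars 1 SD and points the 3 libraries. Neural cells show Cxcr4 (404) and Ackr3 (234), and endothelial cells show Cxcl12 (414) over Cxcr4 (153.5).

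The genes whose bulk pattern lay closest to each member were ranked by Pearson's r over the 12 libraries among 19765 genes, which describes 4 population levels rather than 12 independent points. For Cxcl12 they were Slc1a4 (r = 0.996), an amino acid transporter, Ccnjl (0.996), Sema6a (0.989), a semaphorin, Nkd1 (0.985), an inhibitor of WNT signalling, and Hey1 (0.981), a NOTCH target that is also one of the arterial markers used below. Nkd1 was at 6655 to 8474 normalized counts in endothelial libraries and 57.9 to 152.1 in microglia. For Cxcr4 they were Rrnad1 (0.966), Clcn3 (0.962), a chloride transporter, Suco (0.956), Unc5a (0.951), a netrin receptor, and Cmtm4 (0.942). For Ackr3 they were Vegfa (0.981), the angiogenic ligand, Ubxn7 (0.978), Gng2 (0.976), a G protein gamma subunit, Zfp275 (0.974) and Arhgap32 (0.973). Vegfa was at 2266 to 2594 normalized counts in neural libraries and 4.53 to 130 in the other 9. By Spearman's rank correlation 1 of these 5 was also among the first 5 for Cxcl12, 3 for Cxcr4 and 0 for Ackr3.

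Of 37 other genes of the pathway, 36 passed the minimum of a mean of 10 normalized counts and Cxcl11 did not. In neural cells 12 were called higher and 14 lower, where 32.9% and 31.2% of all genes were. Mural cells had 7 higher and 14 lower (19.3% and 22.7% of all genes), endothelial cells 14 and 15 (19.7% and 22.4%), and microglia 17 and 10 (23.4% and 22.3%). The median log2 difference of the 36 genes was 0.58 in microglia against -0.02 over all genes, and -0.42 in neural cells against 0.09.

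Among the other ligands Adm, which encodes the ACKR3 ligand adrenomedullin, was highest in endothelial cells at 2918 ± 1524 normalized counts (SD, n = 3; log2 difference 7.18, limma adjusted p = 0.00011), and Cxcl14 was highest in neural cells at 89.1 ± 16.2 (5.93, adjusted p = 5.53e-05). Mif, a cytokine that also binds both receptors, was broad, with means from 1962 ± 89.2 in neural to 4732 ± 574 in mural cells. Hmgb1, which forms a complex with CXCL12, was broad as well, with means from 6594 ± 144.6 in neural to 18080 ± 1519 in mural cells. Of 6 coreceptors and alternative receptors, 5 were called higher in microglia (23.4% of all genes) and 6 lower in neural cells (31.2%). Cd74, the MIF receptor, was at 3644 ± 1062 in microglia and at most 3.79 on average elsewhere, Cxcr3 was at 125.1 ± 86.1 and listed at 0 elsewhere, and Sdc4, a heparan sulfate proteoglycan, was at 1414 ± 286 against 99.8 to 492. Cd4 was highest in endothelial cells at 120 ± 61 and was at 92.7 ± 70.6 in microglia. The remaining members, named after their values were seen, were Cd164, highest in microglia (15640 ± 1768), and Itgb1, an integrin subunit highest in mural cells (16900 ± 2909).

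Of 5 G protein subunits 3 were called higher and 1 lower in neural cells (32.9% and 31.2% of all genes). The endothelial counts were 2 higher and 3 lower (19.7% and 22.4%). The microglial counts were 1 and 2 (23.4% and 22.3%), and the mural counts 1 and 1 (19.3% and 22.7%). Gnao1, the neuronal inhibitory G protein, was at 15850 ± 744 normalized counts in neural cells against 176.9 to 575 on average elsewhere, whereas Gnai1 and Gnai2 were highest in endothelial cells (2732 ± 198 and 28050 ± 3559) and Gnai3 in mural cells (9339 ± 1030). Gna13 was broad, with means from 1144 ± 232 in endothelial cells to 3581 ± 301 in microglia. Of 7 kinases, arrestins and regulators, 4 were called higher in neural cells (32.9% of all genes), and 3 higher and 3 lower in microglia (23.4% and 22.3%). Arrb1 was highest in neural cells at 3206 ± 146.3, and Arrb2 was highest in microglia at 9857 ± 1816. Rgs16, which limits G protein signalling, was highest in neural cells at 1071 ± 39.9, and Grk3, a receptor kinase, in microglia at 1276 ± 350. Among genes of ligand processing and receptor turnover, Dpp4, the peptidase that inactivates CXCL12, was endothelial at 429 ± 157.5 and 0 to 32.1 elsewhere on average. Stam was highest in neural cells (2744 ± 9.04) and Usp14 in microglia (3790 ± 581), while Mmp14 stood at 2456 ± 1002 in mural, 2448 ± 185.9 in neural and 2216 ± 993 in endothelial cells and at 167.4 ± 46.8 in microglia. Of 8 downstream effectors 6 were called higher and 2 lower in microglia (23.4% and 22.3% of all genes). Endothelial cells had 4 higher and 3 lower (19.7% and 22.4%), and neural cells 2 and 4 (32.9% and 31.2%). Mural cells had 1 and 4 (19.3% and 22.7%). The effectors higher in microglia were led by Rac2 (11420 ± 2786), Dock2 (7281 ± 1349), Pik3cg (4548 ± 773) and Pik3r5 (884 ± 334), which drive leukocyte migration.

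In single wells the ligand was again endothelial. Cxcl12 gave 66, 14 and 1 transcripts in the endothelial gate on plates 1, 2 and 3, or 68.8, 22 and 14.2 CPM, the transcripts of the gene scaled to all transcripts of the gate. The neural gate gave 4, 2 and 1 transcripts, the mural gate 8, 4 and 0, and the microglial gate 2, 1 and 1. On plates 1 and 2 the endothelial gate stood above all others, while plate 3 held too few transcripts for an order. The transcript sums of each gate on each plate went into edgeR. Endothelial Cxcl12 was higher than the other gates by 2.99 on the log2 scale (SE 0.41, edgeR adjusted p = 3.99e-12; 16.7% of 9281 genes called higher), and it held with DESeq2 (adjusted p = 0.00792). Microglial Cxcl12 was lower (log2 difference -1.88, edgeR adjusted p = 0.023; 21.7% of genes called lower), which missed the threshold with DESeq2 (0.193). Neural and mural Cxcl12 were not called (log2 differences -0.61 and -0.50, edgeR adjusted p = 0.522 and 0.638). Of all genes, 13.9% were called higher and 8.84% lower in the mural gate. Without plate 1 or without plate 2, Cxcl12 did not pass the filter on low counts in edgeR.

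Cxcl12 was found in 30 of 225 endothelial wells, or 13.3% (exact 95% interval 9.18 to 18.5%), with up to 9 transcripts in a well. The endothelial share was 8.57% without plate 1 and 16.5% without plate 2. The share was 3.13% (0.858 to 7.81%) in microglial wells, the gate with the least Cxcl12, 3.33% in mural and 5.69% in neural wells, at median depths of 6408, 10760, 6885 and 7717 transcripts for endothelial, microglial, mural and neural wells. After each well was thinned to 1500 transcripts the endothelial share was 4.89%, the mural share 1.43%, and neural and microglial wells held none. Neural and mural Cxcl12 could not be told from the microglial background at this depth. Intervals and limits cover counting error only. Barcodes assigned to no well held 3 Cxcl12 transcripts, 2.8% of those in wells.

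Cxcr4 in wells did not follow the bulk order. The endothelial gate gave 75, 28 and 0 transcripts on plates 1, 2 and 3 (78.2, 44 and 0 CPM), the mural gate 22, 27 and 0 (34.8, 31.9 and 0), the microglial gate 11, 20 and 3 (16.3, 31.1 and 59.1), and the neural gate 7, 6 and 1 (15.5, 14.2 and 10.9). On plates 1 and 2 the endothelial gate was highest and the neural gate lowest. On plate 3 the 4 gates together held 4 transcripts. Over all plates the 14 neural transcripts gave an exact Poisson 95% interval of 7.93 to 24.3 CPM, against 61.8 CPM (50.45 to 74.96) in the endothelial, 31.6 (23.4 to 41.8) in the mural and 24.8 (17.2 to 34.7) in the microglial gate.

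In edgeR endothelial Cxcr4 was higher than the other gates by 1.38 (SE 0.31, edgeR adjusted p = 6.6e-05; 16.7% of genes called higher and 7.63% lower in that gate) and neural Cxcr4 was lower (log2 difference -1.42, SE 0.44, edgeR adjusted p = 0.00487; 17.9% of genes called lower). Mural and microglial Cxcr4 differed from the others by 0.01 and 0.03 and were not called (22.6% of genes called higher in the microglial gate). Neither call held in every setting. With DESeq2 the adjusted p was 0.277 for the endothelial and 0.159 for the neural gate. In edgeR it was 0.675 and 0.17 without plate 1, and 0.054 and 0.22 without plate 2. Neural wells and part of the endothelial wells shared a library on plates 1 and 2. Within the shared library of plate 1, 28 endothelial wells held 116.2 CPM of Cxcr4 and 56 neural wells 15.5. Within that of plate 2, 11 endothelial wells held 23.9 from 2 transcripts and 53 neural wells 14.2.

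Wells with Cxcr4 made up 21.8% of the endothelial gate (exact 95% interval 16.6 to 27.7%), 18.1% of the mural gate (13.1 to 23.98%), 14.1% of the microglial gate (8.55 to 21.3%) and 7.32% of the neural gate (3.4 to 13.4%). After thinning these shares were 10.2%, 3.81% (1.66 to 7.37%), 6.25% and 3.25% (0.893 to 8.12%). The thinned mural and neural shares rest on 8 and 4 wells, and their intervals overlapped. Of 49 endothelial wells with Cxcr4, 21 held 1 transcript and the highest held 7. In microglia 3 wells held 15 of the 34 transcripts. Barcodes assigned to no well held 8 Cxcr4 transcripts against 206 in the wells, a share of 3.88%.

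**Figure D3:**
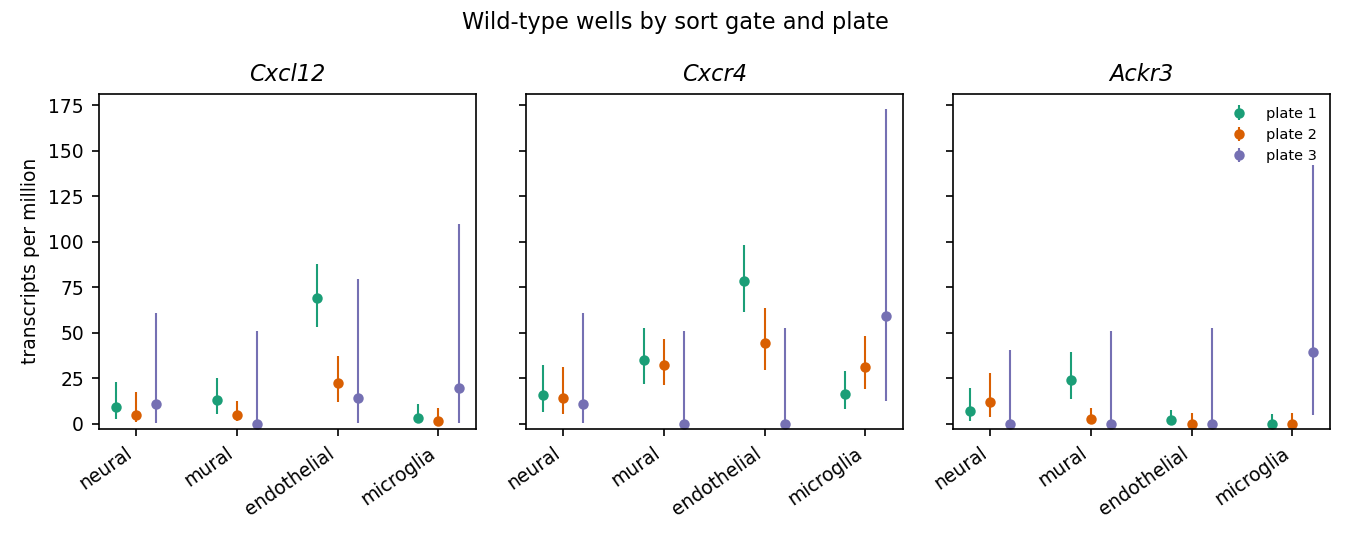
CPM (transcripts scaled to all transcripts of the wells) of Cxcl12, Cxcr4 and Ackr3 in wild-type wells by sort gate and plate, with exact Poisson 95% intervals. On plates 1 and 2 the endothelial gate is highest for Cxcl12 (68.8 and 22) and Cxcr4 (78.2 and 44), and plate 3 has wide intervals.

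Ackr3 was too sparse in wells to pass the filter on low counts. The mural gate gave 15, 2 and 0 transcripts on plates 1, 2 and 3, and the neural gate 3, 5 and 0. Endothelial wells gave 2, 0 and 0, and microglial wells 0, 0 and 2, in each case from 1 well. Over all plates the levels were 11 CPM in the mural gate (exact Poisson 95% interval 6.38 to 17.5), 8.29 in the neural gate (3.58 to 16.3), 1.46 in the microglial gate (0.177 to 5.27) and 1.2 in the endothelial gate (0.145 to 4.34). Mural and neural wells were thus the higher ones, and their intervals overlapped. On plate 1 the mural level was 23.7 and on plate 2 it was 2.36, so the mural value rested on plate 1, where 1 library of 72 wells gave 13 of the 15 transcripts. Without the filter edgeR gave a mural difference of 1.97 (SE 0.66, edgeR adjusted p = 0.0294) and a neural one of 1.15 (SE 0.75, adjusted p = 0.315). The shares of wells were 5.24% in the mural, 5.69% in the neural, 0.781% in the microglial and 0.444% in the endothelial gate, the last being the background for this gene. Without plate 1 the mural share was 1.74%.

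For Cxcr4 the bulk and single-cell values therefore ranked the populations differently. For Ackr3 the neural mean of bulk libraries was 13.5 times the mural mean, whereas in wells the mural (11 CPM) and neural (8.29 CPM) intervals overlapped, and neural wells were above mural ones on plate 2 (11.8 against 2.36) but not on plate 1 (6.64 against 23.7). The differences between the assays were not tested. Bulk neural Cxcr4 was called higher (2.12) and neural-gate Cxcr4 was called lower (-1.42) in edgeR, with the exceptions given above. As a description, 8837 genes were tested in both fits, and for 64.7% of them the highest bulk population was also the highest gate. Among 796 genes called higher in bulk neural cells with a log2 difference within 0.5 of that of Cxcr4, 351 (44.1%) were called higher in the neural gate and 18 (2.26%), Cxcr4 included, were called lower. In that set the neural gate was the lowest of the 4 for 36 genes (4.52%). Over all genes 22.9% were called higher in the neural gate. Bulk libraries and wells differed in kits, in sequenced transcript end and in the number of cells, and the part of each was not tested.

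**Figure D4:**
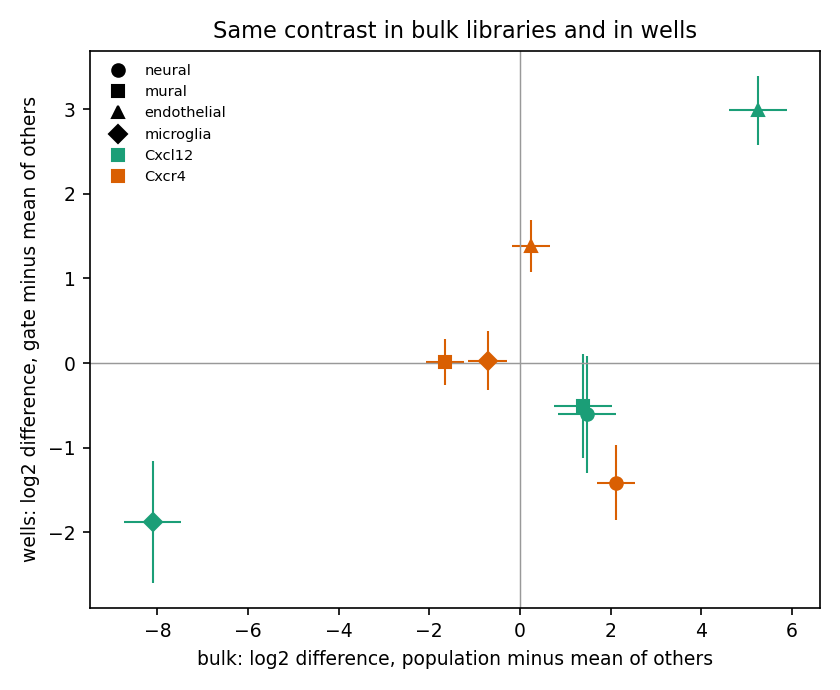
Log2 difference of each population from the mean of the other 3 in bulk (limma, x axis) and in wells (edgeR, y axis) for Cxcl12 and Cxcr4, with standard errors. Endothelial Cxcl12 is high on both axes (5.25 and 2.99), whereas neural Cxcr4 lies at 2.12 in bulk and at -1.42 in wells.

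Within the endothelial gate Cxcl12 was concentrated in wells with arterial markers. Wells were classed by summed transcripts of arterial (Gja4, Efnb2 and others), venous (Nr2f2, Ephb4 and others) or tip cell (Apln, Esm1 and others) lists, none of which holds the 3 genes. In bulk endothelial cells 7 of 8 arterial, 4 of 6 venous and 7 of 8 tip genes were called higher (19.7% of all genes). Some members were highest elsewhere, such as Efnb2 in neural cells and Nr2f2 and Pgf in mural cells. A class needed at least 3 transcripts of its list and over 2 times those of each other list. This left 22 arterial, 19 venous, 44 tip and 140 unclassed wells, and 36 of the classed wells lay near a limit of the rule. Arterial wells held 36, 6 and 1 Cxcl12 transcripts on plates 1, 2 and 3, tip wells 5, 0 and 0, and venous wells none. Over all plates that was 323 CPM (exact Poisson 95% interval 234 to 435) in arterial, 14.4 (4.67 to 33.6) in tip and 31.2 (21.5 to 43.9) in unclassed wells, while venous wells held 0. Arterial wells were the highest on each of the 3 plates, on plate 3 from 1 transcript.

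Arterial Cxcl12 exceeded the other 2 classes (edgeR adjusted p = 0.00377), where 7 of 1034 genes were called higher and 2 lower (0.87% together). Its log2 difference of 6.11 depends on the prior count because venous wells were at 0. The fit took sums of at least 3 wells of a class on a plate, 8 in all, of which 2 were arterial (plates 1 and 2). Only these 2 arterial sums, at 360 and 248 CPM, let Cxcl12 pass the filter on low counts. Tip sums held at most 27.1 CPM and venous sums 0. The call therefore adds no separate support for the arterial concentration seen in the counts. The call held with DESeq2. Without plate 2 a single arterial sum was left, assumed to vary like the other classes, and the call missed the threshold (edgeR adjusted p = 0.146). A stricter class rule, which needed at least 5 transcripts and over 3 times those of each other list, left 1 arterial and 1 venous sum and so gave no replicate check. Venous and tip Cxcl12 were not called in edgeR (adjusted p = 0.561 and 0.937), where 1.35% and 2.13% of genes were. Cxcl12 was found in 10 of 22 arterial wells, or 45.5% (exact 95% interval 24.4 to 67.8%), in 3 of 44 tip wells (6.82%, 1.43 to 18.7%), in 17 of 140 unclassed wells (12.1%) and in 0 of 19 venous wells (exact upper bound 17.6% for wells with a transcript). After thinning it was in 6 arterial wells, 5 unclassed wells and no tip well.

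Cxcr4 in the endothelial gate was less restricted. Arterial wells held 10, 8 and 0 transcripts on plates 1, 2 and 3 (135.2 CPM over all plates, exact Poisson 95% interval 80.2 to 214), tip wells 9, 5 and 0 (40.3, 22.03 to 67.6), venous wells 0, 1 and 0 (7.71, 0.195 to 42.97) and unclassed wells 56, 14 and 0 (66.3, 51.7 to 83.7). Cxcr4 did not pass the filter on low counts for classes. Without that filter in edgeR arterial Cxcr4 was higher by 3.11 (SE 0.86, p = 0.000311 before and 0.394 after adjustment), so it was not called. This setting was added after seeing the data. Wells with both Cxcl12 and Cxcr4 numbered 13, which was 43.3% of the 30 wells with Cxcl12 and 26.5% of the 49 wells with Cxcr4. These 13 wells had a median of 7454 transcripts, against 6408 in the gate.

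**Figure D5:**
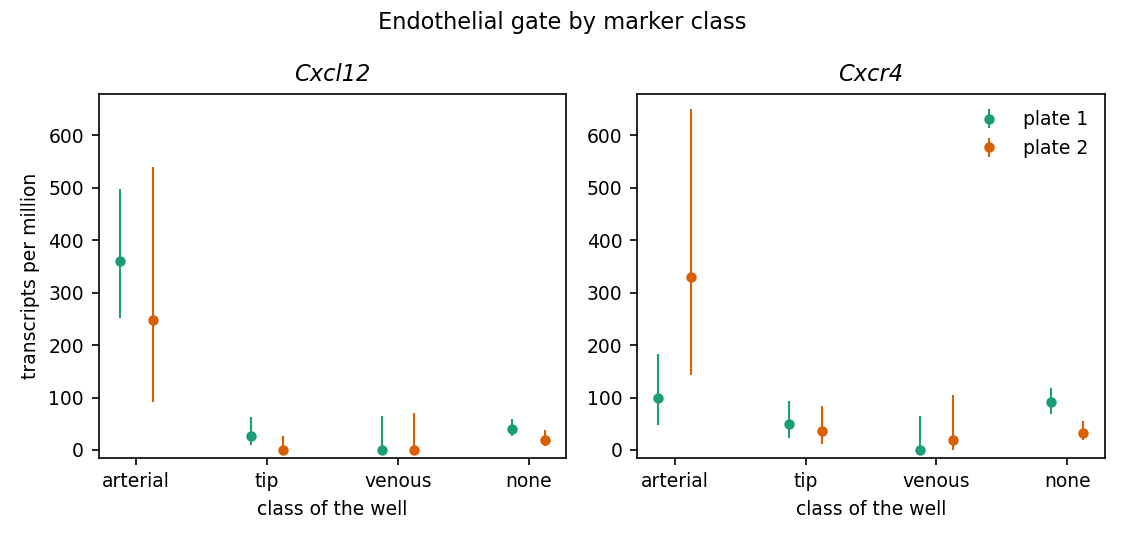
CPM (transcripts scaled to all transcripts of the wells) of Cxcl12 and Cxcr4 in wells of the endothelial gate by marker class on plates 1 and 2, with exact Poisson 95% intervals. Arterial wells hold 360 and 248 CPM of Cxcl12, and tip wells 27.1 and 0.

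Within the neural gate the receptors were found in few wells. Classes by the same rule gave 31 progenitor, 23 GABAergic, 44 excitatory and 25 unclassed wells, with 15 classed wells near a limit of the rule. Progenitor wells held 5, 3 and 0 Cxcr4 transcripts on plates 1, 2 and 3, or 36.3 CPM (exact Poisson 95% interval 15.7 to 71.5). GABAergic wells held 1, 1 and 0, or 11.4 CPM (1.37 to 41). Excitatory wells held none on any plate, with an upper interval bound of 10.4 CPM. Unclassed wells held 1, 2 and 1, or 18.6 CPM (5.06 to 47.5). Wells with Cxcr4 made up 12.9% of progenitor and 12% of unclassed wells, or 6.45% and 8% after thinning. Ackr3 was at 3, 0 and 0 transcripts in progenitor, 0, 4 and 0 in GABAergic and 0, 1 and 0 in excitatory wells. Cxcl12 was at 5 transcripts in excitatory, 2 in GABAergic and 0 in progenitor wells, each from a separate well.

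None of the 3 genes passed the filter on low counts for neural classes, so there is no main test. Without the filter edgeR gave progenitor Cxcr4 a difference of 3.31 (SE 1.19, p = 0.00544 before and 0.131 after adjustment), which was not called, nor, in this setting added after seeing the data, was any of the other 8 contrasts. In the neural gate 9 wells held Cxcr4 and 7 held Ackr3, and no well held both. At this depth that does not show separate cells, since each receptor was found in few wells. In the mural gate 1 well held both receptors, of 38 with Cxcr4 and 11 with Ackr3.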

How the data were processed

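Bulk values were deposited by the authors as normalized counts, treated here as a signal on a linear scale, and the wells as transcript counts corrected for repeated identifiers, whose sums were rounded for the tests. The submitters' processing notes name BWA 0.6.2-r126, STAR, featureCounts, DESeq2 and mm10, with no role given. Low bulk values were whole reads for 100% of 124078 values within 0.01 of a read, so reads were recovered. limma 3.58.1 was fitted to log2(normalized count + 1) over 12 libraries with a mean-variance trend and no block, for genes with a mean of at least 10. Well sums per plate and gate or class were tested with edgeR 4.0.16 (TMM, filterByExpr, quasi-likelihood). DESeq2 1.42.0 served as an alternative in both. Adjustment was by Benjamini-Hochberg over all genes at 0.05, two-sided. The methods were tested on simulated data. Bulk libraries that share a number in the labels were treated as coming from the same brain, and their residual correlations between populations ran from -0.054 to 0.0801. Wells came from 3 wild-type brains, but nothing in the labels ties plates to brains, so p-values over plates measure the spread between plates. The plate 3 library with all its neural and microglial wells carries another number in its title than in its file and well names, and the edgeR gate calls held without plate 3. Exon lengths came from GENCODE vM21. Members, lists and tests were chosen with earlier results of these data known. Named pathway genes are, per list, up to 4 called genes with the largest log2 difference in their highest population. Gna13, Cd164 and Itgb1 were named outside this rule. Mof knockout wells and the sort gate of medium to low PDGFRb were not compared. Alternatives covered pseudocount, minimum, normalization, blocks, tools, depth, class rule and each library or plate left out.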

Additional observations from a re-analysis of the deposited data

Results flagged for a closer look

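Wells of a further sort gate, with medium to low PDGFRb, entered no comparison above. Of 23 such wells with over 1500 transcripts, 5 held Ackr3 and 5 held Cxcr4, a share of 21.7% for each (exact 95% interval 7.46 to 43.7%). They are listed because the share exceeds 13%, or 3 wells of 23, although the interval includes that value. Each gene gave 5 transcripts, or 30.5 CPM (exact Poisson 95% interval 9.89 to 71.1). Plate 1 gave 4 of the 5 for each gene from 14 wells. After thinning Ackr3 was found in none of the 23 wells and Cxcr4 in 2. In the mural gate Ackr3 stood at 11 CPM.

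Barcodes assigned to no well held 8 Cxcr4 transcripts over 1056 barcodes, 3 in the library with the most. All transcripts at such barcodes came to 1.86% of those in wells, and for Cxcr4 the share was 3.88%.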

How the results depend on the processing

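Of 240 alternative values of the 12 bulk population contrasts, 227 kept direction and call. With a pseudocount of 10, edgeR and DESeq2, neural Cxcl12 passed (0.78, 1.22 and 1.20), and DESeq2 also called mural Cxcl12 (1.20). Mural Ackr3, never called, turned to 0.11 after quantile normalization. With 1 library left out, values ran from 1.19 to 1.85 for neural and 1.11 to 1.76 for mural Cxcl12, -1.23 to -0.081 for microglial Cxcr4, -2.37 to -1.87 for microglial and -0.37 to 0.41 for mural Ackr3. Among pairs, neural minus mural Cxcl12 turned to -0.51 after quantile normalization and ran from -0.092 to 0.32 with 1 library left out, and endothelial minus microglial Ackr3 ran from -1.26 to 0.18. With the brain number as replicate block the neural minus endothelial Cxcr4 difference stayed at 1.41 (limma adjusted p = 0.0548) and mural minus endothelial Ackr3 at 2.14 (0.0417), and no other call of the members changed. The plate as replicate block changed no call in edgeR (endothelial Cxcl12 2.89, neural Cxcr4 -1.40).

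In wells DESeq2 gave neural Cxcr4 -1.34, endothelial Cxcr4 1.17, mural Cxcr4 -0.078 and microglial Cxcl12 -1.74, none called, and without the filter edgeR gave microglial Cxcl12 -1.87 (adjusted p = 0.0502). With 1 plate left out Cxcr4 ran from -1.57 to -1.32 in the neural, 0.67 to 1.54 in the endothelial, -0.11 to 0.21 in the mural and -0.18 to 0.78 in the microglial gate, and arterial Cxcl12 from 5.98, with 1 arterial sum left, to 6.27. Without plate 1 or plate 2 the Cxcl12 gate contrasts gave no value, nor did endothelial classes without plate 1, and neural classes gave none with the filter on low counts. Over all genes, edgeR called 2777 lower in mural and 2434 in endothelial bulk cells against 4485 and 4430 in limma. The causes were not tested. Low counts in wells, 43 wells on plate 3 and 3 brains limit precision.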

Other observations

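Wells of one gate lay in more than 1 library on plates 1 and 2. Endothelial Cxcl12 on plate 1 was at 116.2 CPM in the library shared with neural wells (27 transcripts in 28 wells) and at 53.6 in the other (39 in 92 wells). On plate 2 it was at 35.8 (3 transcripts in 11 wells) and 19.9 (11 in 81 wells). Mural Cxcr4 on plate 1 was at 24.8 and 58.2 CPM in its 2 libraries, from 11 transcripts each, and on plate 2 at 32.6 and 29.7. Mural Ackr3 on plate 2 was at 0 in 77 wells and at 9.91 in 28 wells.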
